A study of Mus musculus with 12 samples.

Results

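The transcripts of the mitochondrial genome filled 31 of the 39248 rows of the deposited table, which are the rows whose gene name starts with mt-. Of these, 28 rows name 1 gene, among them 8 mRNAs, 2 rRNAs and 18 tRNAs. The other 3 rows name several genes, 7 in all, and are described apart. The libraries came from 3T3-L1 cells, an established mouse line of fibroblast-like preadipocytes that had been differentiated into adipocytes in culture. In 6 libraries the cells had been electroporated with an siRNA that targets the mRNA of the zinc finger protein Zfp407, with 3 libraries for each of 2 siRNAs. In the other 6 libraries the cells had received a control siRNA. Both arms were given 0.75 nmol of siRNA, 2 days after differentiation. The table numbers the knockdown libraries 1 to 6 without marking which siRNA was used, so they were treated as 1 arm. Per the series' design text every library was a separate electroporation, and p-values therefore refer to the spread between electroporations of a single cell line, any difference between the siRNAs included. Bulk RNA does not tell a change in copies of the mitochondrial genome per cell from a change in RNA made or kept per copy.

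Zfp407 itself averaged 1.79 ± 0.208 FPKM in Zfp407 siRNA libraries and 2.83 ± 0.178 FPKM in control libraries (SD, n = 6 each), and each knockdown library lay below the lowest control library. FPKM counts the sequenced fragments of a transcript per kilobase of its length and relative to the mapped fragments of its library. The 10 adipocyte markers looked at, such as Adipoq and Plin1, all had a row, with a summed level of 17382 to 22183 FPKM in Zfp407 siRNA libraries and 18846 to 22955 FPKM in control libraries. Of these 10, 5 were called lower with Zfp407 siRNA (Adipoq, Cidec, Slc2a4, Cfd and Lep), 0 were called higher, and 5 did not pass the test (limma over all rows, adjusted p under 0.05). Over all rows tested, 24.8% were called lower and 11.6% higher. Adipoq, which encodes the hormone adiponectin, had a log2 fold change of -0.29 (limma adjusted p = 0.0168), and Lep, which encodes leptin, of -0.96 (limma adjusted p = 0.000102). The part of this difference in the mitochondrial values was not tested. The 8 preadipocyte and fibroblast markers summed to 1099 to 1433 FPKM in Zfp407 siRNA libraries and 1221 to 1372 FPKM in control libraries. Of the 7 that were tested, 0 were called higher, 1 was called lower (Col1a1) and 6 did not pass. Endothelial markers (3 rows) summed to at most 0.391 FPKM and macrophage markers (3 of 5 with a row) to at most 0.13 FPKM in any library, with the macrophage gene Emr1 at 0. Depth in reads is unknown. The smallest steps between values give the scale by which each library's fragments were divided, which need not equal depth in reads. Relative to control library 1, this scale ran from 0.945 to 1.153 in Zfp407 siRNA libraries and from 0.880 to 1.017 in control libraries. Knockdown library 6 stood apart from the other 5 in most mitochondrial rows, and results that rest on it are given with and without it.

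Mitochondria carry a small circular genome of their own, which encodes core subunits of the respiratory chain and ATP synthase together with the rRNAs and tRNAs needed to translate them. Both strands are transcribed into long precursors, which are cut into single RNAs mostly at the tRNAs that stand between the other genes. The enzymes that transcribe, cut, modify and degrade these RNAs are made from nuclear genes. In fat cells mitochondria oxidise fuel and supply precursors for fatty acid synthesis, and their mRNAs are among the abundant RNAs of the cell. In the names used here a heavy-strand transcript runs in the sense of most mitochondrial genes, and a light-strand transcript runs the other way. Each row is named by the strand of its annotated gene.

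GENCODE M21 (GRCm38) annotates 37 genes on this genome, of which 13 encode proteins, 2 rRNAs and 22 tRNAs. The table's bounds matched these positions exactly for 21 of the 28 single-gene rows, and 7 rows were wider. The sequences shown are those on which the comparisons of neighbouring rows rest. The first is the tRNA whose level rose with knockdown, the next 4 are tRNA genes from the top and the bottom of the range of levels, and the last is the stretch that ties 2 protein genes into 1 row. They are given 5′ to 3′ in the sense of the gene, from the GENCODE M21 transcripts. Capitals mark the anticodon in the tRNA genes and, in the last, the bases shared by both reading frames.
mt-Ts1 (serine tRNA, light-strand transcript, MT:6870-6938, minus strand): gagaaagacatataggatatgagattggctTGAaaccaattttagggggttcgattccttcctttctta
mt-Tp (proline tRNA, light-strand transcript, MT:15356-15422, minus strand): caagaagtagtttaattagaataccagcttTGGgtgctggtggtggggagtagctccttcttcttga
mt-Te (glutamate tRNA, light-strand transcript, MT:14071-14139, minus strand): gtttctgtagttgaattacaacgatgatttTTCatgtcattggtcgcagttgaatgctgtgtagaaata
mt-Tt (threonine tRNA, heavy-strand transcript, MT:15289-15355, plus strand): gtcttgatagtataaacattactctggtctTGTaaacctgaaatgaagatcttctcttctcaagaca
mt-Tf (phenylalanine tRNA, heavy-strand transcript, MT:1-68, plus strand): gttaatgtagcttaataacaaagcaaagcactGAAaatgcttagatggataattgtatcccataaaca
mt-Atp8 and mt-Atp6 overlap (MT:7912-7984, plus strand): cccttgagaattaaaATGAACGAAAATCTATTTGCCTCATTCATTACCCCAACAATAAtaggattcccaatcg

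The genome is so compact that neighbouring genes share bases. mt-Atp8 and mt-Atp6, both subunits of ATP synthase, share 43 bases, and mt-Atp6 shares 1 base with mt-Co3, a subunit of complex IV (cytochrome c oxidase). These 3 genes stood in 1 row of the table. mt-Nd4l and mt-Nd4 (complex I, NADH dehydrogenase) share 7 bases and stood in 1 row, as did mt-Ts2 and mt-Tl2, the other serine and leucine tRNAs, which share 1 base. The genes mt-Co1 and mt-Ts1 overlap by 3 bases on opposite strands, and mt-Nd5 and mt-Nd6 by 14. The isoleucine tRNA mt-Ti and the tryptophan tRNA mt-Tw were named in no row. The bounds of the mt-Nd1 row, 2751 to 3842, hold mt-Ti, and those of the mt-Nd2 row, 3914 to 5016, hold mt-Tw. No source used here says whether the libraries keep strand, so a fragment of 1 strand cannot be told from the other in such rows.

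Levels spanned more than 3 orders of magnitude, with the light-strand tRNAs at the top. In control libraries the 8 light-strand tRNAs averaged 8730 (mt-Tq) to 255436 FPKM (mt-Tp) with a median of 45065 FPKM, and the 10 heavy-strand tRNAs 144 (mt-Tf) to 13845 FPKM (mt-Tl1) with a median of 1217 FPKM. The medians in Zfp407 siRNA libraries were 47412 FPKM for the light-strand and 1155 FPKM for the heavy-strand tRNAs. FPKM values of tRNA rows do not compare with those of longer rows. The tRNA values were whole multiples of a smallest step in all 18 rows (within 0.05 of a whole number), and this step, the worth of 1 fragment in control library 1, was 206 FPKM for the 65-base mt-Tk and 73.7 FPKM for the 75-base mt-Tl1. Rows of the same length had the same step, which differed between the arms by at most 0.00025%.

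Fragment numbers make the contrast between neighbours plain. They are not adjusted for depth, here or below, so sums of fragments do not measure the difference between the arms. mt-Tt and mt-Tp, whose sequences are given above, lie side by side on opposite strands and are both 67 bases long, so their FPKM values share a scale. The mt-Tp row held 10708 fragments over the 6 Zfp407 siRNA libraries and 9071 over the 6 control libraries. The mt-Tt row held 17 over the Zfp407 siRNA libraries and 8 over the control libraries. The rows of mt-Ts1 and mt-Te, both of 69 bases, held 7830 and 4227 fragments in Zfp407 siRNA libraries and 4996 and 3456 in control libraries, while the heavy-strand mt-Tv, also of 69 bases, held 18 in Zfp407 siRNA and 15 in control libraries. This order of rows, with the light-strand tRNAs above the heavy-strand tRNAs of the same length, was the same in both arms.

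**Figure D1:**
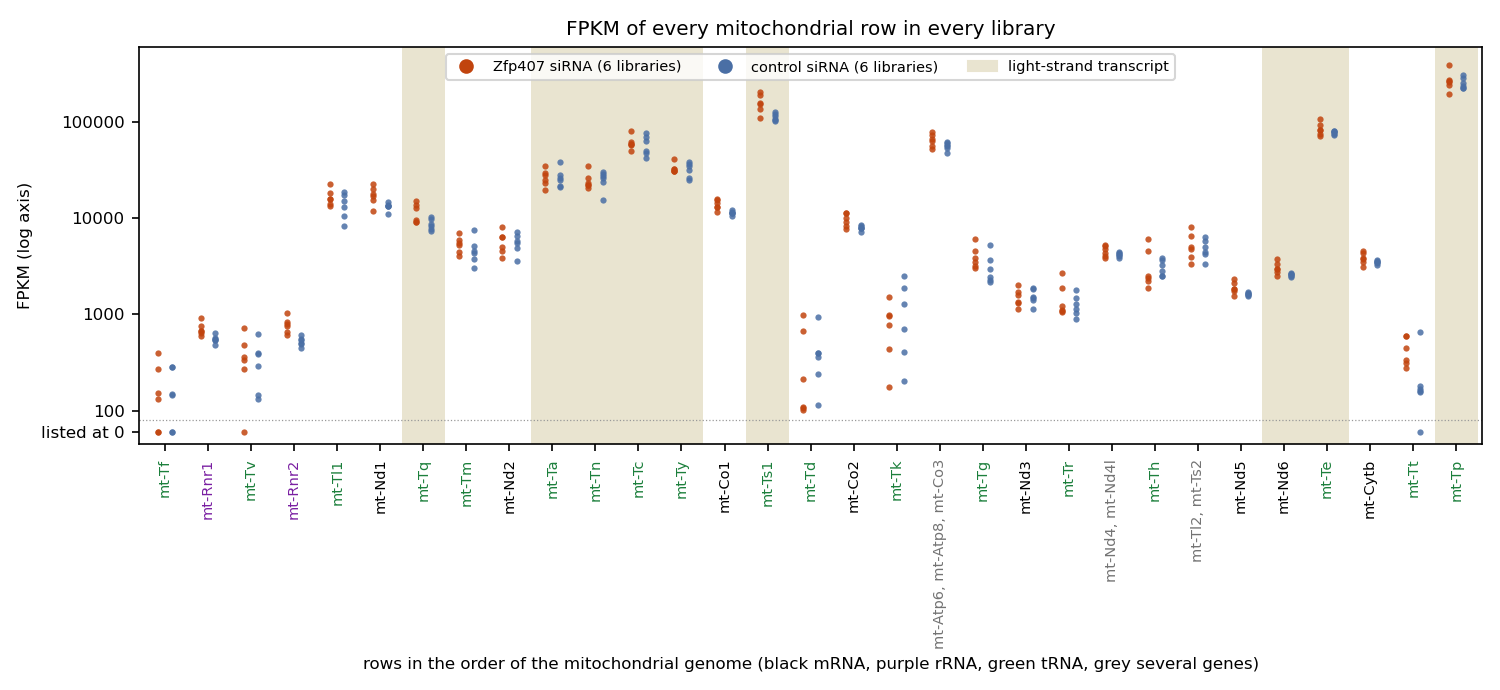
FPKM (log axis) of the 31 mitochondrial rows in genome order, each dot 1 library, with 6 Zfp407 siRNA libraries left of 6 control libraries in each row. The light-strand tRNAs, on shaded ground, run from mt-Tq to mt-Tp at control means of 8730 to 255436 FPKM, and values listed at 0 sit under the dotted line.

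Among the protein genes, the control means ran from mt-Nd1 at 13305 FPKM and mt-Co1 at 11381 FPKM, through mt-Co2 (7923 FPKM), mt-Nd2 (5618 FPKM), mt-Cytb (3525 FPKM) and mt-Nd6 (2574 FPKM), to mt-Nd5 (1628 FPKM) and mt-Nd3 (1543 FPKM). Of neighbours in this order, mt-Nd1 overlapped mt-Co1 in range over the control libraries, as did mt-Co2 with mt-Nd2, mt-Nd2 with mt-Cytb, and mt-Nd5 with mt-Nd3. The 2 rRNA rows stood below every mRNA row, with control means of 556 FPKM for mt-Rnr1 (12S rRNA of the small mitochondrial ribosomal subunit) and 527 FPKM for mt-Rnr2 (16S rRNA of the large subunit). This order in FPKM need not be that of the amounts in the cells. What part RNA selection during library preparation has in the rRNA values, or in their difference between the arms, was not tested.

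With Zfp407 siRNA, 4 of the 28 single-gene transcripts rose and 0 fell in limma's test with Benjamini-Hochberg adjustment (adjusted p under 0.05). These were both rRNAs, mt-Co1 and mt-Ts1. Over all 14706 rows tested, those with a mean of at least 1 FPKM, 36.4% were called in either direction, 11.6% as higher and 24.8% as lower. All 28 members passed the filter on low values. Their log2 fold changes were above 0 in 22 of 28 rows with a median of 0.15, while the median over all rows tested was -0.05. Without knockdown library 6, 3 of 28 were called higher (both rRNAs and mt-Co1) and 0 lower, with 34.4% of all rows called in either direction and 11.3% called higher. In that comparison 17 of 28 log2 fold changes were above 0, with a median of 0.06. Against a minimum fold of 1.2, which 5.82% of all rows passed (2.13% as higher, 3.69% as lower), 0 of 28 were called with or without library 6, so each of these rises is one whose size was not shown to exceed 1.2 times. In the authors' deposited table, mt-Rnr2 alone among the 31 rows was marked as significant.

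Both rRNAs rose. mt-Rnr1 stood at 641, 591, 755, 678, 681 and 909 FPKM in Zfp407 siRNA libraries 1 to 6, against 541, 486, 567.9, 558, 545 and 638 FPKM in control libraries 1 to 6. Only knockdown library 2 lay within the control range. The means were 709 ± 112 FPKM with Zfp407 siRNA and 556 ± 49.2 FPKM with control siRNA (SD, n = 6 each), a difference of 27.5%, or of 20.3% without knockdown library 6. On the log2(FPKM + 1) scale, on which all fold changes here were fitted, mt-Rnr1 was higher by 0.34 (SE 0.10; limma, adjusted p = 0.0161; exact permutation, two-sided, p = 0.00433).

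mt-Rnr2 had 652, 619.3, 764, 787, 837 and 1035 FPKM in Zfp407 siRNA libraries 1 to 6, against 492, 448, 503, 549, 552 and 619.2 FPKM in control libraries 1 to 6. It was the only member whose arms did not overlap, though knockdown library 2 and control library 6 all but met. Over all rows tested, the arms did not overlap in 19.5%. The means were 782 ± 149 FPKM with Zfp407 siRNA and 527 ± 59.5 FPKM with control siRNA (SD, n = 6 each), 48.4% apart, or 38.8% without knockdown library 6. Its log2 fold change of 0.56 (SE 0.12) had a limma adjusted p of 0.00318, and its two-sided exact permutation p of 0.00216 is the smallest that 6 libraries against 6 allow. The authors' deposited table gave a log2 fold change of 0.58 with q = 0.0313 for mt-Rnr2, and 0.36 with q = 0.340 for mt-Rnr1.

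The 2 rRNAs are cut from the same stretch of precursor, with the valine tRNA mt-Tv between them. The ratio of mt-Rnr2 to mt-Rnr1 was 1.10 ± 0.0882 in Zfp407 siRNA libraries and 0.947 ± 0.0487 in control libraries (SD, n = 6 each). It was highest in knockdown library 5 (1.23) and lowest in control library 3 (0.886), and 5 of the 6 knockdown libraries exceeded the highest control library. When each library was scaled to its mitochondrial mRNAs, mt-Rnr2 was still called higher, with a log2 fold change of 0.33 (limma adjusted p = 0.00727), and mt-Rnr1 was not (0.12, adjusted p = 0.164). This scaling summed the single-gene mRNA rows together with the mRNA rows that name several genes. Under that scaling 3.3% of all rows tested were called higher and 40% lower.

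**Figure D2:**
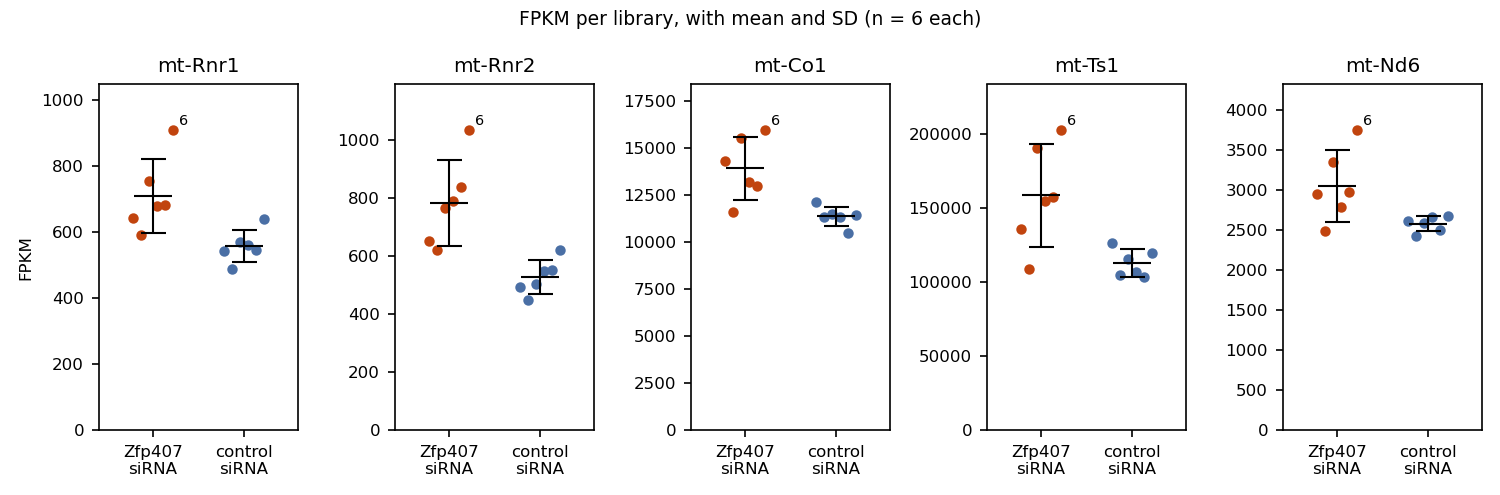
FPKM per library (dots) with mean and SD (bars) of the 4 members that passed the test and of mt-Nd6, Zfp407 siRNA left of control siRNA, n = 6 each; the digit 6 marks knockdown library 6. In mt-Rnr2 the lowest knockdown library (619.3 FPKM) just clears the highest control library (619.2 FPKM), and in the other 4 panels knockdown library 2 lies among the controls.

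Of the 8 single-gene mRNAs, 1 rose and 7 did not pass the test. mt-Co1, the catalytic subunit of cytochrome c oxidase, ranged from 11619 to 16005 FPKM (median 13746) in Zfp407 siRNA libraries, against 10498 to 12120.3 FPKM (median 11402) in control libraries. All but knockdown library 2 lay above the highest control library. Its means were 13942 ± 1669 FPKM with Zfp407 siRNA and 11381 ± 519 FPKM with control siRNA (SD, n = 6 each), with a log2 fold change of 0.29 (SE 0.09; limma, adjusted p = 0.0201; exact permutation p = 0.00433). Without knockdown library 6 the log2 fold change was 0.24 (adjusted p = 0.0392). The other mRNA of this complex with a row of its own, mt-Co2, averaged 9611 ± 1469 FPKM with Zfp407 siRNA and 7923 ± 421 FPKM with control siRNA (SD, n = 6 each), a log2 fold change of 0.27 (SE 0.10, limma adjusted p = 0.0534).

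A nuclear near-copy of mt-Co2 bears on that value. Gm13341 on chromosome 2 is 95.9% identical to mt-Co2 over 684 bases. Its row stood at 0.806 to 1.72 FPKM in all 6 Zfp407 siRNA libraries, against 453 to 534 FPKM in all 6 control libraries. Thus the whole arm was low or high, with a limma log2 fold change of -7.82 (SE 0.08, adjusted p = 2.85e-15), and -8.65 (q = 0) in the authors' deposited table. Gm13341 averaged 1.24 ± 0.314 FPKM with Zfp407 siRNA and 499 ± 28.4 FPKM with control siRNA (SD, n = 6 each), a difference of -498 FPKM, while the mt-Co2 row was 1688 FPKM higher with Zfp407 siRNA. Among the controls, both rows were lowest in library 2 (453 FPKM for Gm13341, 7230 FPKM for mt-Co2). Both were highest in library 1 (534 FPKM for Gm13341, 8453 FPKM for mt-Co2). Whether fragments of mt-Co2 were placed on Gm13341, and differently in the arms, was not tested. Nor was it tested whether the placing of fragments differed between the arms for other mitochondrial rows. Summed over both rows, the level was 9612 ± 1469 FPKM with Zfp407 siRNA and 8422 ± 449 FPKM with control siRNA (SD, n = 6 each). That sum differed by 14.1%, against 21.3% for the mt-Co2 row alone.

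Other near-copies had rows too. Gm10222, on chromosome 1 at 24612404 to 24612700, is identical to mt-Nd4l over 294 bases and averaged 2182 ± 282 FPKM with Zfp407 siRNA and 2013 ± 114 FPKM with control siRNA (SD, n = 6 each; limma adjusted p = 0.344). Gm13340, 97.6% identical to mt-Co1 over 1545 bases, was called higher, with 3.12 FPKM on average with Zfp407 siRNA and 2.30 FPKM with control siRNA (log2 fold change 0.30, SE 0.10; limma, adjusted p = 0.0367). Gm11407, 92.4% identical to mt-Nd5 over 1055 bases, was also called higher, with 11.8 FPKM on average with Zfp407 siRNA and 9.52 FPKM with control siRNA (log2 fold change 0.27, SE 0.08; limma, adjusted p = 0.0201). The levels of Gm13340 and Gm11407 are small beside those of mt-Co1 and mt-Nd5. Gm11512, 90.7% identical to mt-Co1 over 654 bases, did not pass the test (log2 fold change 0.20, limma adjusted p = 0.118). Some annotated copies had no row. They include Gm28661, 100% identical to mt-Co2 over 681 bases. Gm10925 (mt-Atp6), Gm28437 (mt-Co3) and Gm28439 (mt-Nd4), also 100% identical over the matched bases, had no row either. No match of at least 60 bases at 90% identity or more was found for the rRNAs among the annotated nuclear transcripts.

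The complex I mRNAs divided into 3 with positive and 2 with near-zero fold changes, none of which passed the test. mt-Nd1 ranged from 11745 to 22587 FPKM (median 17391) in Zfp407 siRNA libraries, against 11152 to 14671 FPKM (median 13448) in control libraries, with means of 17465 ± 3744 FPKM with Zfp407 siRNA and 13305 ± 1157 FPKM with control siRNA (SD, n = 6 each). Its log2 fold change of 0.37 (SE 0.14, limma adjusted p = 0.0586) was the largest among the mRNAs, and 5 of 6 knockdown libraries lay above all controls. The bounds of this row also hold mt-Ti, as described above. mt-Nd5 averaged 1898 ± 277 FPKM with Zfp407 siRNA and 1628 ± 60.6 FPKM with control siRNA (SD, n = 6 each), with a log2 fold change of 0.21 (SE 0.09, limma adjusted p = 0.0790).

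mt-Nd6, the only protein gene read as a light-strand transcript, ranged from 2481 to 3752 FPKM (median 2959) in Zfp407 siRNA libraries, against 2429 to 2673 FPKM (median 2594) in control libraries. Here too knockdown library 2 alone lay within the control range. The means were 3047 ± 445 FPKM with Zfp407 siRNA and 2574 ± 93.1 FPKM with control siRNA (SD, n = 6 each), with a log2 fold change of 0.23 (SE 0.09; limma, adjusted p = 0.0565; exact permutation p = 0.0173). Its ratio to mt-Nd5, the gene opposite its end, was 1.61 ± 0.0192 with Zfp407 siRNA and 1.58 ± 0.0239 with control siRNA (SD, n = 6 each). Both rows have the same bounds, 11742 to 14070, and without known strandedness the ratio does not tell their fragments apart.

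mt-Nd2 and mt-Nd3 had nearly equal means in the arms. mt-Nd2 averaged 5696 ± 1524 FPKM with Zfp407 siRNA and 5618 ± 1269 FPKM with control siRNA (log2 fold change 0.01, SE 0.20, limma adjusted p = 0.971). mt-Nd3 averaged 1525 ± 321 FPKM with Zfp407 siRNA and 1543 ± 277 FPKM with control siRNA (log2 fold change -0.02, SE 0.15, limma adjusted p = 0.917; SD, n = 6 each for both genes). These 2 rows varied more among the controls than the other mRNAs did, with coefficients of variation of 22.6% and 17.96% in control libraries against 3.62% to 8.70% for the other 6. Relative to the summed mitochondrial mRNAs, mt-Nd3 was called lower (log2 fold change -0.24, limma adjusted p = 0.0403). Under that scaling 40% of all rows tested were called lower, and the median log2 fold change over all rows was also -0.24. Within complex I the ratio of mt-Nd1 to mt-Nd2 ran from 2.36 to 4.39 in Zfp407 siRNA libraries and from 2.03 to 3.71 in control libraries. mt-Cytb, the mitochondrially encoded subunit of complex III, averaged 3861 ± 547 FPKM with Zfp407 siRNA and 3525 ± 149 FPKM with control siRNA (SD, n = 6 each; log2 fold change 0.12, SE 0.09, limma adjusted p = 0.319).

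Of the 18 single-gene tRNAs, 1 rose and 17 did not pass the test. The serine tRNA mt-Ts1 ranged from 108609 to 202794 FPKM (median 156134) in Zfp407 siRNA libraries, against 103386 to 126100.0 FPKM (median 110994) in control libraries. Knockdown library 2 lay among the controls and the other 5 above all of them. The means were 158375 ± 34658 FPKM with Zfp407 siRNA and 112661 ± 9236 FPKM with control siRNA (SD, n = 6 each), a difference of 40.6%. This is a log2 fold change of 0.47 (SE 0.15; limma, adjusted p = 0.0332; exact permutation p = 0.0108). Without knockdown library 6 it was 0.39 (SE 0.15, adjusted p = 0.0664) and was no longer called. The call was also lost on leaving out any of 7 other libraries, so it rests on small margins.

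In fragments, the mt-Ts1 row held 1125, 908, 1703, 1133, 1267 and 1694 in Zfp407 siRNA libraries 1 to 6, against 977, 715, 787, 795, 815 and 907 in control libraries 1 to 6. Counting error is therefore small beside the differences between libraries. mt-Ts1 lies antisense to the end of mt-Co1, and the bounds given for both rows, 5328 to 6938, are the same. Its FPKM ratio to mt-Co1 was 11.3 ± 1.46 with Zfp407 siRNA and 9.89 ± 0.515 with control siRNA (SD, n = 6 each), and 4 of 6 knockdown libraries exceeded the highest control ratio. Scaled to the mitochondrial mRNAs, mt-Ts1 had a log2 fold change of 0.24 (limma adjusted p = 0.0575).

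The other 7 light-strand tRNAs had log2 fold changes from -0.01 (mt-Tn, asparagine) to 0.38 (mt-Tq, glutamine). mt-Tq averaged 11546 ± 2615 FPKM with Zfp407 siRNA and 8730 ± 1179 FPKM with control siRNA (SD, n = 6 each; SE 0.15, limma adjusted p = 0.0612), and 6 of 6 knockdown libraries lay above the control mean. mt-Te averaged 85582 ± 12745 FPKM with Zfp407 siRNA and 77983 ± 2780 FPKM with control siRNA (SD, n = 6 each; log2 fold change 0.12, SE 0.11, limma adjusted p = 0.417). The row with the highest level, mt-Tp, averaged 270840.0 ± 64424 FPKM with Zfp407 siRNA and 255436 ± 33371 FPKM with control siRNA (SD, n = 6 each; log2 fold change 0.06, SE 0.17, limma adjusted p = 0.799). The other 4 stand next to each other between mt-Nd2 and mt-Co1, and in each the arms overlapped. mt-Tc (cysteine) averaged 61657 ± 10322 FPKM with Zfp407 siRNA and 57987 ± 13641 FPKM with control siRNA, a log2 fold change of 0.11, and mt-Ty (tyrosine) 33167 ± 4162 FPKM with Zfp407 siRNA and 32142 ± 5615 FPKM with control siRNA (0.06). mt-Ta (alanine) averaged 26636 ± 5402 FPKM with Zfp407 siRNA and 26669 ± 6146 FPKM with control siRNA (0.00), and mt-Tn 24828 ± 5368 FPKM with Zfp407 siRNA and 25151 ± 5247 FPKM with control siRNA (SD, n = 6 each for these 4 rows). Without knockdown library 6, 4 of the 8 light-strand tRNAs had log2 fold changes above 0 and 4 below.

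Of the 10 heavy-strand tRNAs, 7 were above 0 in all libraries and 3 were listed at 0 in some. mt-Tl1 (leucine) averaged 16683 ± 3337 FPKM with Zfp407 siRNA and 13845 ± 3934 FPKM with control siRNA (SD, n = 6 each; log2 fold change 0.30, SE 0.20, limma adjusted p = 0.263). mt-Tm (methionine) averaged 5357 ± 1033 FPKM with Zfp407 siRNA and 4745 ± 1516 FPKM with control siRNA, a log2 fold change of 0.21. mt-Tg (glycine) averaged 4055 ± 1154 FPKM with Zfp407 siRNA and 3122 ± 1170 FPKM with control siRNA, a log2 fold change of 0.41. All 3 of these tRNAs overlapped between the arms. mt-Tr (arginine) averaged 1501 ± 648 FPKM with Zfp407 siRNA and 1269 ± 325 FPKM with control siRNA (0.19), and mt-Th (histidine) 3293 ± 1691 FPKM with Zfp407 siRNA and 3113 ± 585 FPKM with control siRNA (-0.04; SD, n = 6 each for these 4 rows). mt-Tg held 180 fragments over the Zfp407 siRNA libraries and 125 over the control libraries, the lowest library of the knockdown arm (21) lying within the control range of 14 to 35. mt-Td (aspartate) averaged 365 ± 375 FPKM with Zfp407 siRNA and 407 ± 280 FPKM with control siRNA (log2 fold change -0.51), and mt-Tk (lysine) 809 ± 471 FPKM with Zfp407 siRNA and 1165 ± 903 FPKM with control siRNA (-0.34; SD, n = 6 each). These 2 rows held 19 and 25 fragments over the Zfp407 siRNA libraries and 20 and 32 over the control libraries. With so few fragments, fold changes of the size seen in the rRNAs were not detectable in these rows.

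The rows listed at 0 in some libraries are given by library. mt-Tf held 2, 1, 0, 1, 0 and 3 fragments in Zfp407 siRNA libraries 1 to 6, against 2, 0, 0, 1, 2 and 1 in control libraries 1 to 6. mt-Tv held 4, 6, 3, 2, 0 and 3 fragments in Zfp407 siRNA libraries, against 3, 1, 2, 1, 5 and 3 in control libraries. In both rows the arms lie on top of each other. mt-Tt held 4, 4, 2, 2, 2 and 3 fragments in Zfp407 siRNA libraries, against 1, 1, 0, 1, 1 and 4 in control libraries. Every knockdown library held at least 2 fragments of mt-Tt, and all control libraries but 1 held at most 1. On log2(FPKM + 1), mt-Tt had an exact permutation p of 0.0390, not adjusted for the number of rows, and a limma adjusted p of 0.186. Its log2 fold change of 2.19 on the log2(FPKM + 1) scale includes the 0 of control library 3.

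The rows that name several genes did not pass the test. The row of mt-Atp6, mt-Atp8 and mt-Co3 ranged from 52501 to 77742 FPKM in Zfp407 siRNA libraries, against 47909 to 61678 FPKM in control libraries. Its means were 64962 ± 9538 FPKM with Zfp407 siRNA and 56178 ± 5126 FPKM with control siRNA (SD, n = 6 each; log2 fold change 0.20, SE 0.12, limma adjusted p = 0.203). The row of mt-Nd4 and mt-Nd4l averaged 4598 ± 597 FPKM with Zfp407 siRNA and 4189 ± 213 FPKM with control siRNA (SD, n = 6 each; log2 fold change 0.13, SE 0.09, limma adjusted p = 0.275). The row of mt-Tl2 and mt-Ts2 averaged 5267 ± 1763 FPKM with Zfp407 siRNA and 4887 ± 1118 FPKM with control siRNA (SD, n = 6 each; log2 fold change 0.08, SE 0.22, limma adjusted p = 0.811). In each of these rows the arms overlapped.

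By class, the difference between the arms was largest in the rRNAs and smallest in the tRNAs. Summed over the 2 rRNA rows, the level was 1491 ± 255 FPKM with Zfp407 siRNA and 1083 ± 106 FPKM with control siRNA (SD, n = 6 each), 37.7% apart, or 29.3% without knockdown library 6. The 8 mRNA rows summed to 57044 ± 8690 FPKM with Zfp407 siRNA and 47496 ± 2610 FPKM with control siRNA, 20.1% apart, or 14.4% without library 6. The 18 tRNA rows summed to 705645 ± 140846 FPKM with Zfp407 siRNA and 625122 ± 60971 FPKM with control siRNA, 12.9% apart, or 5.0% without library 6. These sums are descriptions, and mt-Tp and mt-Ts1 dominate that of the tRNAs.

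The size of each class difference depended on what the libraries were scaled to. Scaled to the summed FPKM of nuclear rows with a protein-coding symbol, which averaged 484345 FPKM with Zfp407 siRNA and 505844 FPKM with control siRNA, the differences were 43.8% for the rRNAs, 25.3% for the mRNAs and 17.8% for the tRNAs. The summed FPKM of all rows averaged 3354626 FPKM with Zfp407 siRNA and 3131065 FPKM with control siRNA. The mitochondrial rows made up 839007 FPKM of it with Zfp407 siRNA and 738955 FPKM with control siRNA. Most of it lay in neither the mitochondrial nor the nuclear protein-coding rows. As a share of all summed FPKM, the differences were 28.1% for the rRNAs, 11.4% for the mRNAs and 5.02% for the tRNAs. The last of these turned to -1.97% without knockdown library 6, the others staying above 0 at 20.7% and 6.49%. Scaled to the nuclear protein-coding rows, 9 of 28 single-gene rows were called higher, beside 17.5% higher and 17.6% lower over all rows tested. When libraries were scaled to the rows outside the mitochondrial genome, mt-Rnr2 alone was called, beside 5.26% higher and 25.5% lower over all rows.

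**Figure D3:**
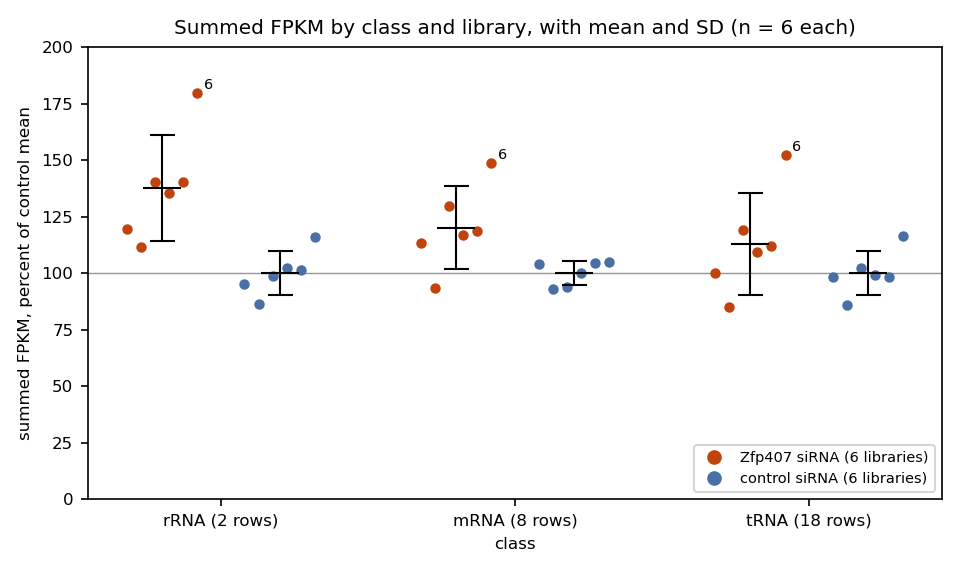
Summed FPKM of each class in each library as a percentage of the control mean (dots), with mean and SD (bars, n = 6 each), Zfp407 siRNA left of control siRNA; the digit 6 marks knockdown library 6. Library 6 is highest in each class, and the tRNA sums of the other 5 knockdown libraries lie within or close to the control range.

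Library 6 of the knockdown arm stood apart. It was the highest of all 12 libraries in 21 of 28 members, and knockdown library 2 was the lowest of its arm in 20 of 28. Among the controls, library 2 was the lowest of all 12 libraries in 10 of 28 members. All 31 mitochondrial rows together held 32.8% of the summed FPKM in knockdown library 6, 19.4% to 26.3% in the other 5 knockdown libraries and 22.7% to 25.3% in control libraries. The median log2 ratio to the control mean in knockdown libraries 1 to 6 was 0.26, 0.17, 0.49, 0.44, 0.49 and 0.85 for the rRNAs. For the mRNAs it was 0.19, -0.11, 0.37, 0.08, 0.20 and 0.50, and for the tRNAs -0.04, -0.08, 0.17, 0.07, 0.14 and 0.69.

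Another group of RNAs moved with the knockdown arm and was also highest in library 6. The 199 rows with a snoRNA name had median log2 ratios of 1.197, 0.79, 1.31, 0.72, 0.96 and 1.94 in knockdown libraries 1 to 6, against -0.05 to 0.19 in control libraries. SnoRNAs are nuclear RNAs that guide the modification of ribosomal RNA. What part the make-up of each library in such RNAs has in the mitochondrial values was not tested.

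**Figure D4:**
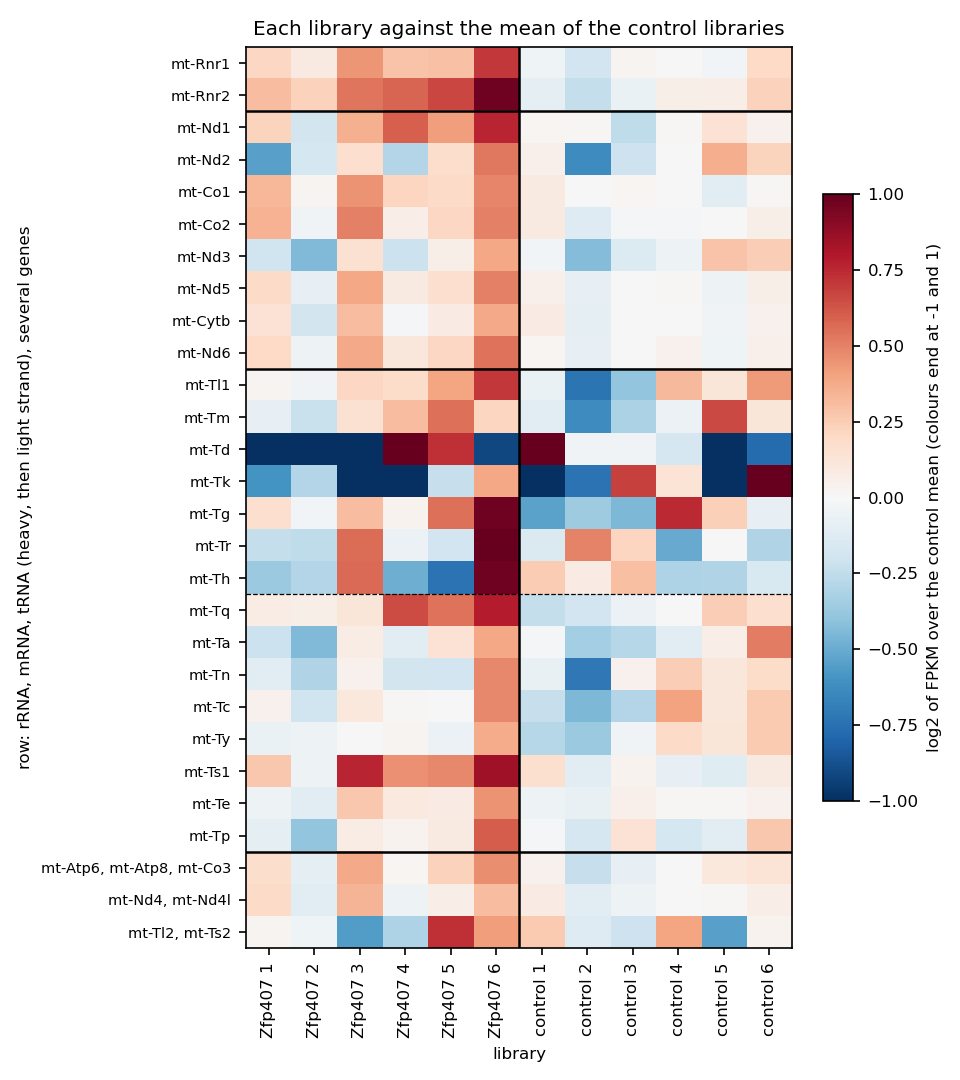
Log2 of each library's FPKM over the control mean (colour, ends at -1 and 1) for the 28 rows never listed at 0, grouped as rRNA, mRNA, tRNA (heavy-strand above the dashed line, light-strand under it) and rows of several genes, with Zfp407 siRNA libraries left of control libraries. Knockdown library 6 is red in nearly every row, knockdown library 2 is pale or blue outside the rRNAs, and the rRNA rows are red in all 6 knockdown libraries.

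**Figure D5:**
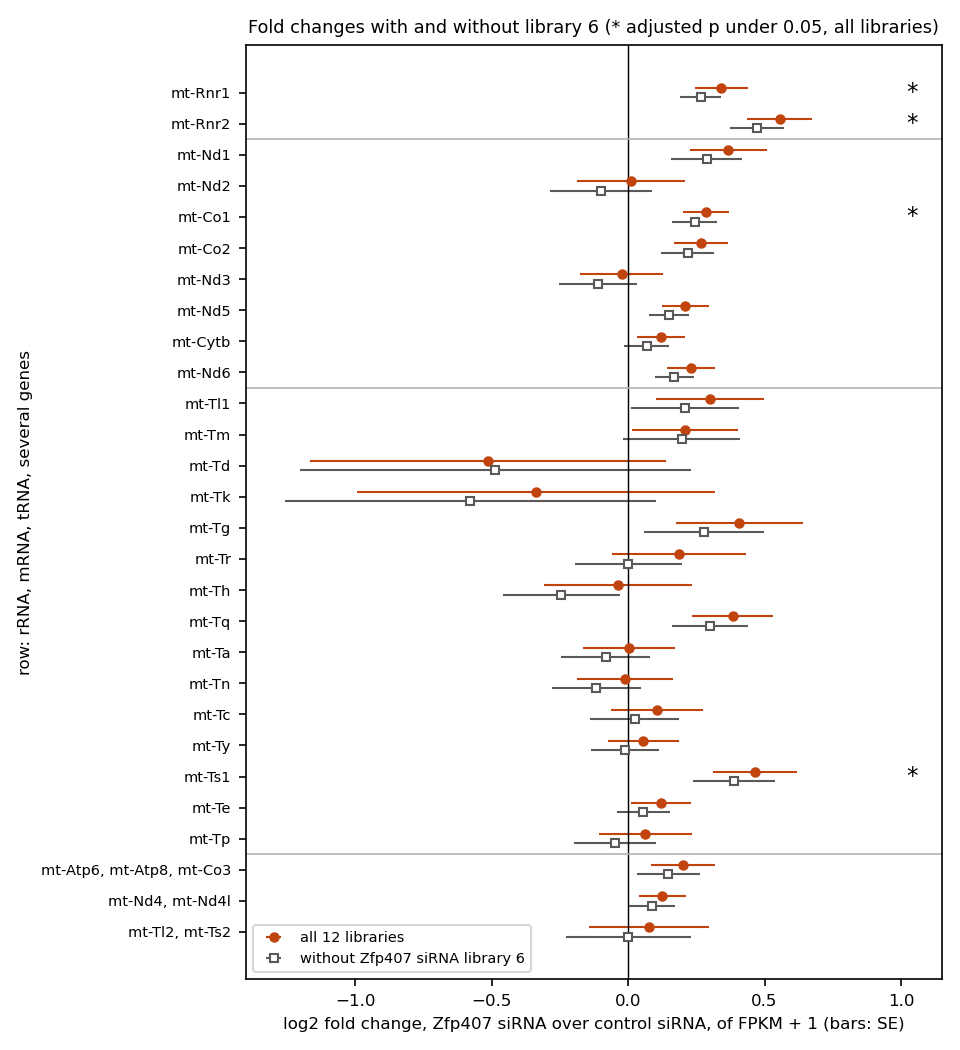
Log2 fold change of Zfp407 siRNA over control siRNA on the log2(FPKM + 1) scale with its SE, for the same 28 rows, from all 12 libraries (filled) and without knockdown library 6 (open). The rRNAs stay at 0.27 and 0.47 without library 6, and stars mark the 4 members called with all libraries.

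The nuclear genes that act on these transcripts were read from a list of 71 genes, of which 70 had a row and 69 were tested. Of the 69, 8 were higher, 23 were lower and 38 did not pass the test, with a median log2 fold change of -0.10, beside 11.6% higher, 24.8% lower and a median of -0.05 over all rows. Against the minimum fold of 1.2, 1 was higher and 4 were lower. Scaled to nuclear protein-coding rows, 14 of the 69 were higher and 16 were lower, beside 17.5% higher and 17.6% lower over all rows. For the genes of mitochondrial transcription, 0 of 11 were higher and 3 were lower, all of them of the termination factor family. Polrmt, the mitochondrial RNA polymerase, averaged 20.05 ± 2.26 FPKM with Zfp407 siRNA and 18.3 ± 3.53 FPKM with control siRNA (SD, n = 6 each; limma adjusted p = 0.351). Tfam, which packages the genome and starts transcription, averaged 57.6 ± 5.41 FPKM with Zfp407 siRNA and 53.3 ± 5.23 FPKM with control siRNA (SD, n = 6 each; adjusted p = 0.284). The initiation factor Tfb2m (log2 fold change -0.04, adjusted p = 0.678) and the elongation factor Tefm, listed as 1110002N22Rik (-0.11, adjusted p = 0.365), did not pass either.

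Of the 20 genes of mRNA stability, decay and ribosome assembly tested, 4 were higher and 6 were lower. Over all rows tested, 11.6% were higher and 24.8% lower. The lower ones include Ddx28, a helicase of mitochondrial ribosome assembly whose row shares its bounds with the neighbouring Dus2l, at 5.40 ± 0.375 FPKM with Zfp407 siRNA and 9.72 ± 0.443 FPKM with control siRNA (SD, n = 6 each; log2 fold change -0.74, SE 0.05, limma adjusted p = 2.24e-07). Rexo2, an exonuclease of short RNA fragments, was at 32.01 ± 1.90 FPKM with Zfp407 siRNA and 52.7 ± 3.82 FPKM with control siRNA (SD, n = 6 each; log2 fold change -0.70, SE 0.05, limma adjusted p = 1.51e-06). Pnpt1, the polynucleotide phosphorylase that degrades mitochondrial RNA, was lower by a log2 fold change of -0.41 (adjusted p = 0.000428). Lrpprc, which binds and stabilises mitochondrial mRNAs, averaged 28.98 ± 3.79 FPKM with Zfp407 siRNA and 33.7 ± 1.19 FPKM with control siRNA (SD, n = 6 each; log2 fold change -0.22, adjusted p = 0.0281), and its adjusted p was 0.0510 without knockdown library 6. Its partner Slirp, listed as 1810035L17Rik, did not pass (-0.24 in log2 fold change, limma adjusted p = 0.114, and 0.0311 without knockdown library 6).

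The 4 higher genes of that group were Tbrg4, Ptcd1, Ptcd3 and Dhx30. Tbrg4, an RNA-binding protein that stabilises some mitochondrial mRNAs, averaged 81.2 ± 12.7 FPKM with Zfp407 siRNA and 49.8 ± 8.96 FPKM with control siRNA (SD, n = 6 each; log2 fold change 0.70, SE 0.12, limma adjusted p = 0.000921). Ptcd3, an RNA-binding protein of the small mitochondrial ribosomal subunit, averaged 137 ± 18.5 FPKM with Zfp407 siRNA and 106 ± 13.2 FPKM with control siRNA (SD, n = 6 each; log2 fold change 0.36, SE 0.10, limma adjusted p = 0.0142). GENCODE M21 places snoRNA genes inside Tbrg4 and Ptcd3 on the same strand, as in 2 of the 8 higher, 0 of the 23 lower and 1 of the 38 remaining genes of the list. Whether fragments of those snoRNAs count toward the 2 rows was not tested. Ptcd1, a related RNA-binding protein, and Dhx30, a helicase of mitochondrial RNA granules, had log2 fold changes of 0.18 (adjusted p = 0.00121) and 0.27 (adjusted p = 0.0192).

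Among the enzymes that cut the precursors and finish tRNA ends, 0 of 6 were higher and 3 were lower. For this and the groups that follow, the shares over all rows tested were 11.6% higher and 24.8% lower. Prorp, the nuclease that cuts the 5′ ends of mitochondrial tRNAs and is listed as 1110008L16Rik, averaged 3.66 ± 0.306 FPKM with Zfp407 siRNA and 5.62 ± 0.357 FPKM with control siRNA (SD, n = 6 each; log2 fold change -0.51, SE 0.05, limma adjusted p = 1.8e-05). For the enzymes of rRNA and tRNA modification, 1 of 14 was higher and 7 were lower. Trmt5, a tRNA methyltransferase, averaged 5.95 ± 0.382 FPKM with Zfp407 siRNA and 8.25 ± 0.241 FPKM with control siRNA (SD, n = 6 each; log2 fold change -0.41, SE 0.04, limma adjusted p = 1.23e-05). Of 11 genes of mitochondrial DNA replication and upkeep, 1 was higher and 3 were lower. Of 7 upstream regulators, 2 were higher and 1 was lower, and Ppargc1b, a coactivator of mitochondrial genes, averaged 7.12 ± 0.874 FPKM with Zfp407 siRNA and 5.54 ± 0.341 FPKM with control siRNA (SD, n = 6 each; log2 fold change 0.31, SE 0.07, limma adjusted p = 0.00474).

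The nuclear genes whose proteins join the mitochondrially encoded ones in complexes I, III, IV and V and in the mitochondrial ribosome gave 141 tested rows. Of these, 9 were higher, 21 were lower and 111 did not pass the test, with a median log2 fold change of 0.02. Complex I had 3 higher and 7 lower of 33, complex III 1 and 0 of 9, complex IV 0 and 3 of 11, and complex V 2 and 1 of 17. The proteins of the mitochondrial ribosome, which assemble with mt-Rnr1 and mt-Rnr2, had 3 higher and 10 lower of 71. Over all rows tested 11.6% were higher and 24.8% lower, so the 9 and 21 of 141 partners are both smaller shares than those over all rows. The direction of the partners' calls depended on the scaling. Scaled to nuclear protein-coding rows, 43 were higher and 18 lower, beside 17.5% higher and 17.6% lower over all rows. Under that scaling the partners' higher share was above that over all rows, and their lower share below it. Scaled to rows outside the mitochondrial genome, 0 were higher and 27 lower, beside 5.26% higher and 25.5% lower over all rows.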

How the data were processed

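No source used here gives the strandedness, genome build, annotation or aligner settings. Cufflinks 2.0.2, Bowtie2 2.0.0.7 with TopHat2 2.0.5, and SAMtools 0.1.18.0 are listed in the submitters' processing notes. Per the file headers, the deposited table gives FPKM per library, normalized by the authors, together with the mean FPKM of each arm, the log2 fold change between the arms, and its p-value and q-value. The table holds no counts, so no count model was the main test. From the deposited FPKM, log2(FPKM + 1) was computed and rows with a mean of at least 1 FPKM were tested (14706 of 39248) with limma 3.58.1 in R 4.3.3 (intensity trend, Zfp407 siRNA against control siRNA), with Benjamini-Hochberg adjustment over all of them. Exact permutation tests were two-sided, on log2(FPKM + 1), and not adjusted for the number of rows. SD is over libraries. SE is limma's moderated SE, which draws on the spread of all rows tested as well as on that of the row itself. The fit was tested on simulated data. Every single-gene mitochondrial row was named whatever its value, and of the nuclear machinery the 5 genes with the smallest adjusted p in each direction plus Polrmt, Tfam, Tfb2m, Tefm, Lrpprc and Slirp. The members and lists were chosen with earlier results of these data known. Fragment numbers of the tRNA rows were recovered as whole multiples of the smallest step, within 0.05. They are not adjusted for depth, and they carry counting error as well as the differences between libraries. Near-copies were sought with blastn 2.17.0 between the GENCODE M21 transcripts of the mitochondrial and nuclear genes (at least 60 bases at 90% identity). Positions are those of GRCm38, which match the bounds in the table. Knockdown and control columns both carry the numbers 1 to 6, but no source says that equal numbers share a day or a batch, and the deviations of same-numbered libraries correlated between -0.05 and 0.15, so the numbers were not used as pairs. Alternatives were other pseudocounts, filters and scalings, a minimum fold, and leaving out each library. Tables were handled with Python 3.11.15, pandas 2.3.3 and scipy 1.17.1.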

Additional observations from a re-analysis of the deposited data

Results flagged for a closer look

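Of 68 groups of 6 libraries (the FPKM of 1 row in 1 arm), 4 held a library far from the others of its arm, and chance alone gives about 1 such group in 20. mt-Nd1 was at 11152.3 FPKM in control library 3, while the nearest of the other controls was at 13424.5 FPKM. mt-Ty was at 41517.5 FPKM in Zfp407 siRNA library 6, the library that was highest in most mitochondrial rows. mt-Td was at 931.344 FPKM in control library 1, and mt-Tt at 659.134 FPKM in control library 6, both rows with few fragments.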

How the results depend on the processing

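mt-Rnr2 kept its call under every setting tried except the minimum fold of 1.2, with or without knockdown library 6, with log2 fold changes of 0.33 to 0.62 over all 27 settings. mt-Rnr1 lost its call in 5 of 27, mt-Co1 in 7 and mt-Ts1 in 15, and none of the 4 changed sign. The number of mitochondrial genes differing between the arms, 4 as reported, was 2 with no filter on low values, 9 when centred on the median, 1 when scaled to rows outside the mitochondrial genome, 9 when scaled to nuclear protein-coding rows (9 also without library 6), 2 when scaled to the mitochondrial mRNA rows, 7 with no intensity trend, 0 at the minimum fold of 1.2 (0 also without library 6), 1 by the q-values of the authors' deposited table, and 3 to 9 on leaving out each library in turn, the 9 without knockdown library 2. Scaling to the mitochondrial mRNA rows moved the median of all rows by -0.19 on the log2 scale. In the same order of settings, the mitochondrial mRNAs (1 reported) numbered 0, 5, 0, 5, 5, 1, 4, 0, 0 and 0, then 2 with a filter at 5 FPKM, 0 with quantile normalization and 1 to 5 on leaving out each library. The mitochondrial rRNAs (2 reported) numbered 1 when scaled to rows outside the mitochondrial genome or to the mitochondrial mRNA rows and by the deposited q-values, and 0 at the minimum fold with or without library 6. The mitochondrial tRNAs (1 reported) numbered 2 when centred on the median or scaled to nuclear protein-coding rows (with or without library 6), 0 to 2 on leaving out each library, and 0 with no filter, when scaled to rows outside the mitochondrial genome or to the mitochondrial mRNA rows, at the minimum fold with or without library 6 and by the deposited q-values. The cause of these shifts was not tested.

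The rows differing between the arms, 5360 as reported, numbered 856 at the minimum fold of 1.2, 782 there without library 6 and 302 by the deposited q-values, and 4786 to 5525 on leaving out each library. The mitochondrial gene expression machinery (31 reported) gave 5, 3 and 2 under the first 3 of these settings. The nuclear partners (30 reported) gave 5, 5 and 3, and also 61 when scaled to nuclear protein-coding rows (57 without library 6), 59 when scaled to the mitochondrial mRNA rows and 24 to 41 on leaving out each library. Zfp407 missed the threshold in 2 settings, the minimum fold without library 6 (log2 fold change -0.45, adjusted p = 0.0866) and the deposited q-values (-0.77, q = 0.0734).

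No source pairs the libraries by number, and with 6 same-numbered pairs the deviations correlated at -0.05 to 0.15, each knockdown library matching its own number best in 3 of 6. With the column number as a replicate block, 7 mitochondrial genes were called, among them 3 mRNAs, both rRNAs and 2 tRNAs, with 50 nuclear partners and 5700 rows in all.

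Some rows that were not called changed sign in log2 fold change. Scaled to the mitochondrial mRNA rows, this was so for mt-Tf (-0.028), mt-Tm (-0.013), mt-Nd2 (-0.21), mt-Ta (-0.22), mt-Tc (-0.12), mt-Ty (-0.17), mt-Tr (-0.035), mt-Nd5 (-0.012), mt-Te (-0.099), mt-Cytb (-0.10), mt-Tp (-0.16) and the rows of mt-Atp6,mt-Atp8,mt-Co3 (-0.020), mt-Nd4,mt-Nd4l (-0.096) and mt-Tl2,mt-Ts2 (-0.15). Scaled to rows outside the mitochondrial genome, it was so for mt-Nd2 (-0.067), mt-Ta (-0.076), mt-Ty (-0.022), mt-Tp (-0.015) and mt-Tl2,mt-Ts2 (-0.00209). Scaled to nuclear protein-coding rows, mt-Tn (0.052), mt-Nd3 (0.039) and mt-Th (0.025) turned, and without library 6 mt-Tf (-0.58), mt-Nd2 (-0.034) and mt-Ta (-0.016). With quantile normalization mt-Ta (-0.051) and mt-Te (-0.088) turned, and when centred on the median mt-Tn (0.023) and mt-Nd3 (0.010). Without library 6 at the minimum fold, mt-Tf (-0.65), mt-Nd2 (-0.099), mt-Ta (-0.081), mt-Ty (-0.010) and mt-Tp (-0.047) turned, and in the authors' deposited table mt-Tv (0.18) and mt-Th (0.081). On leaving out each library the values ran from -0.98 to 1.08 for mt-Tf, -1.39 to 0.51 for mt-Tv, -0.11 to 0.11 for mt-Nd2, -0.081 to 0.11 for mt-Ta, -0.15 to 0.046 for mt-Tn, -0.015 to 0.11 for mt-Ty, -0.75 to 0.040 for mt-Tk, -0.11 to 0.057 for mt-Nd3, -0.24 to 0.099 for mt-Th, -0.062 to 0.20 for mt-Tl2,mt-Ts2 and -0.047 to 0.15 for mt-Tp. The tRNA rows with few fragments limit what can be seen, and depth in reads is unknown for the longer rows.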
